A study of Mus musculus with 14 samples.

Results

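The extracellular matrix is the protein scaffold between cells, and 40 genes that build, crosslink or cut it were followed in mouse brown adipose tissue (BAT), the fat depot that burns fuel to make heat. They are 16 collagen chains, 9 glycoproteins, proteoglycans and elastic fibre proteins, 3 crosslinking enzymes of the lysyl oxidase family, 4 matrix metalloproteinases (MMPs), 4 tissue inhibitors of metalloproteinases (TIMPs) and 4 ADAMTS proteases. The rows of the members were found by gene symbol among the 55471 genes of the deposited count table. The list itself was chosen with earlier results of these data known. All 40 were in the table, and all 40 were among the 15949 genes with enough counts to be tested.

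Male mice 10 weeks old were held for 2 weeks at thermoneutrality, 30 °C, and part of them were then kept for 6 h at 4 °C. The groups were AdC3KO at 4 °C (4 libraries), WT at 4 °C (4 libraries), AdC3KO at 30 °C (3 libraries) and WT at 30 °C (3 libraries). AdC3KO mice lack CLSTN3B in adipocytes, and no source used here names the Cre driver or the alleles of the controls. RNA came from whole BAT, so cells that keep the gene are in each AdC3KO library. Libraries held between 19932180 and 29026445 gene counts, of which the 40 genes made up 0.58% ± 0.03 in AdC3KO and 0.59% ± 0.04 in WT at 4 °C (SD, n = 4 each), and 0.46% ± 0.07 in AdC3KO and 0.48% ± 0.03 in WT at 30 °C (SD, n = 3 each). Clstn3, the locus that encodes CLSTN3B, averaged 65.8 ± 11.9 CPM (counts scaled to a common library size) in AdC3KO against 1109.6 ± 97.4 CPM in WT at 4 °C (SD, n = 4 each), and 15.8 ± 1.31 CPM in AdC3KO against 207 ± 23.2 CPM in WT at 30 °C (SD, n = 3 each). Of 6 brown adipocyte markers, 6 were tested, and their summed level was 24160 to 32628 CPM in AdC3KO at 4 °C, 23181 to 32779 CPM in WT at 4 °C, 9802 to 13170 CPM in AdC3KO at 30 °C and 10655 to 12464 CPM in WT at 30 °C. The markers did not move as one: with cold 3 rose and 1 fell in AdC3KO, and 3 rose and 2 fell in WT. The sum is mostly Ucp1 and Fabp4. In AdC3KO Ucp1 averaged 13734 CPM at 4 °C against 1618 CPM at 30 °C, and Fabp4 10158 against 5386 CPM. In WT Ucp1 averaged 12686 against 1625 CPM, and Fabp4 10527 against 5445 CPM, while Cidea and Adipoq fell. Transcripts of skeletal muscle summed to 26.9 to 377 CPM in 5 of the libraries (AdC3KO at 4 °C replicate 3, WT at 4 °C replicate 2, AdC3KO at 30 °C replicates 1 and 2, WT at 30 °C replicate 3) and to 0.69 to 3.01 CPM in the others. Interferon response genes summed to 353 CPM in AdC3KO replicate 1 and 1141 CPM in WT replicate 4 at 4 °C, against 58.6 to 143 CPM in the others.

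Fibrillar collagens of types I, III and V form the load-bearing fibres of connective tissue and are made mainly by fibroblasts. Type IV collagen forms the sheet of the basement membrane, which surrounds every adipocyte and lines every capillary, and is made by adipocytes and endothelial cells among others. MMPs and ADAMTS proteases cut matrix proteins, TIMPs bind and block them, and lysyl oxidases crosslink collagen and elastin into insoluble material.

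Cold changed the matrix transcripts in both directions. Whole tissue was sequenced, so more cells of a type and more RNA per cell cannot be told apart. In AdC3KO, 16 of the 40 were higher at 4 °C than at 30 °C by edgeR's quasi-likelihood test with Benjamini-Hochberg adjustment over all 15949 genes, where 31% of all tested genes were higher, and 8 were lower, where 32.1% of all were. In WT, 18 were higher, against a background of 30.6%, and 9 were lower, against 30.8%. The share of the members called in either direction was 60% in AdC3KO, close to the 63% of all tested genes, and 67.5% in WT, close to the 61.4% of all. Among called changes of at least 2-fold, 10 members were higher in AdC3KO (14.1% of all genes) and 3 were lower (19.9% of all genes), and 11 were higher in WT (14% of all genes) and 1 was lower (18.3% of all genes). The median log2 fold change of the members was 0.30 in AdC3KO and 0.30 in WT, against −0.06 and −0.03 over all tested genes. The 15 genes called higher in both genotypes were 93.8% of the AdC3KO list and 83.3% of the WT list, and the 8 called lower in both were 100% of the AdC3KO list and 88.9% of the WT list. The same shares were not counted over all tested genes, so they are not read as a trait of the members. The cold comparisons of the genotypes use different libraries. The split depends on the scaling between libraries. The counts that follow stand beside the median of all genes in the same scaling, not beside the share of all genes called. With upper-quartile scaling 14 members were higher and 10 lower in AdC3KO and 15 higher and 9 lower in WT, as the median of all genes moved to −0.29 in AdC3KO and −0.27 in WT, and with total counts 13 were higher and 16 lower in AdC3KO and 13 higher and 12 lower in WT, with medians of all genes of −0.45 and −0.38. Libraries at 4 °C and 30 °C did not overlap for 21 members in AdC3KO, where 64.1% of all genes did not, and for 24 in WT, where 60.3% did not.

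**Figure D1:**
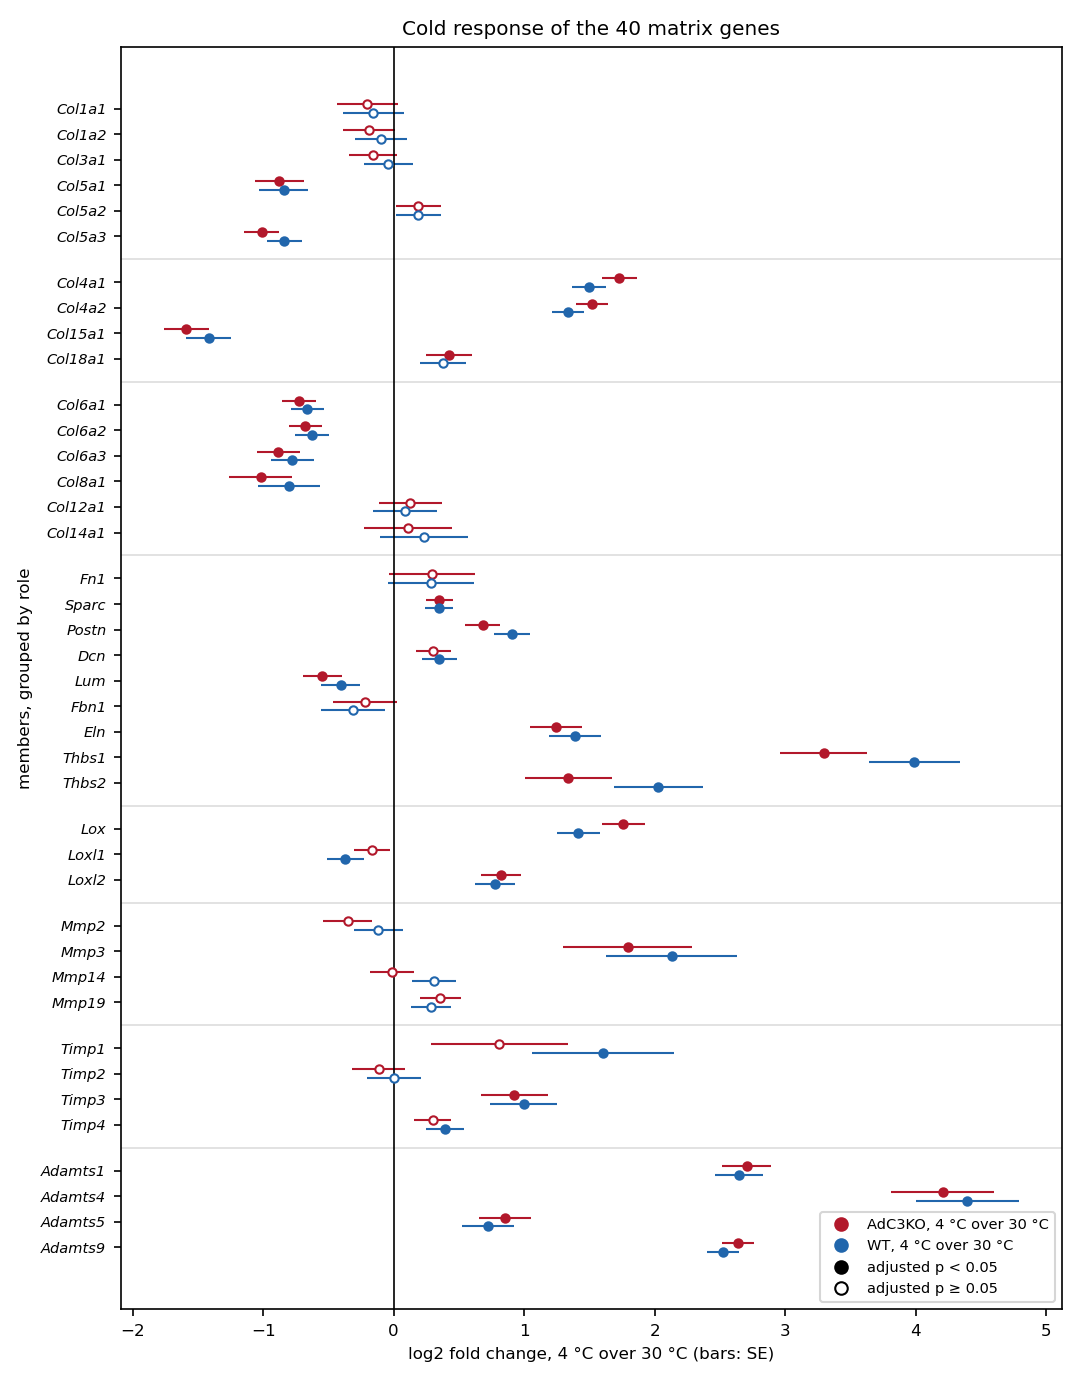
Log2 fold change at 4 °C over 30 °C of each of the 40 genes (horizontal axis), grouped by role from fibrillar collagens at the top to ADAMTS proteases at the bottom, with AdC3KO in red above WT in blue. Bars are standard errors, and filled points passed an adjusted p of 0.05; the values run between 4.21 for Adamts4 and −1.59 for Col15a1 in AdC3KO.

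The 4 ADAMTS proteases were higher at 4 °C in both genotypes, with a median log2 fold change of 2.67 in AdC3KO and 2.59 in WT. Adamts4, which cleaves the large proteoglycans of cartilage and other tissues, was at 17.5, 24.4, 34.3 and 15.5 CPM in AdC3KO at 4 °C, against 1.15, 1.79 and 0.78 CPM in AdC3KO at 30 °C. In WT it was at 46.0, 22.3, 31.4 and 22.3 CPM at 4 °C, against 1.53, 1.197 and 1.58 CPM at 30 °C. The libraries at 4 °C were all far above those at 30 °C, by a log2 fold change of 4.21 (SE 0.40, adjusted p = 7.97e-07, edgeR) in AdC3KO, which is 18.5-fold, and 4.40 (SE 0.40, adjusted p = 5.54e-07) in WT, which is 21.1-fold.

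Adamts1, a protease of versican and aggrecan that also binds heparin in the matrix, was at 89.3, 116.5, 117.3 and 96.6 CPM in AdC3KO at 4 °C, against 15.9, 13.3 and 19.0 CPM in AdC3KO at 30 °C. In WT it was at 146, 124, 122 and 98.7 CPM at 4 °C, against 19.5, 14.9 and 24.1 CPM at 30 °C. The fold change was 6.52 in AdC3KO (log2 2.71, SE 0.19, adjusted p = 1.06e-08, edgeR) and 6.27 in WT (log2 2.65, SE 0.19, adjusted p = 1.31e-08), with no overlap between temperatures. Adamts9, another protease of large proteoglycans, was at 178, 185, 194 and 164 CPM in AdC3KO at 4 °C, against 30.3, 26.1 and 30.5 CPM in AdC3KO at 30 °C. WT had 198, 136, 162 and 169.7 CPM at 4 °C, against 30.6, 26.1 and 29.98 CPM at 30 °C. Its log2 fold change was 2.64 (SE 0.12, adjusted p = 1.12e-10, edgeR) in AdC3KO and 2.53 (SE 0.12, adjusted p = 1.65e-10) in WT. Adamts5, a major aggrecan-cleaving protease of cartilage, rose least, by 0.85 (SE 0.20, adjusted p = 0.00152) in AdC3KO and 0.73 (SE 0.20, adjusted p = 0.00499) in WT, where total counts ended the call (0.37, adjusted p = 0.0806). Annotated exons of another gene on the other strand cover 9.18% of the exon length of Adamts9, and no source used here gives the strand setting of the authors' counting.

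The rise of Adamts1 and the fall of Col15a1, the largest in each direction among the members for which the RefSeq promoter table (GRCm38.p6) holds an entry, are set here beside the sequence at their starts. Each window holds 250 bases before and 50 after the annotated start, 5′ to 3′ on the gene's strand. Capitals mark matches on either strand to 5 motifs. The full cAMP response element was searched as TGACGTCA. Its first bases alone, which the full element also contains, were searched as TGACG. The AP-1 site was searched as TGANTCA. The TATA box was searched as TATAAA and the CCAAT box by its name's letters.
Adamts1, chr16:85803064-85803363, minus strand: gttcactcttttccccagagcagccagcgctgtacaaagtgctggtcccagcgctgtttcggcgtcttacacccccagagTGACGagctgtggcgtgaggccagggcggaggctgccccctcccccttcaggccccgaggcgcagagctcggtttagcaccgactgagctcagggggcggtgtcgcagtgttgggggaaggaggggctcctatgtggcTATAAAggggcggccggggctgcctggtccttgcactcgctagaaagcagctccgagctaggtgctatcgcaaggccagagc
Col15a1, chr4:47207762-47208061, plus strand: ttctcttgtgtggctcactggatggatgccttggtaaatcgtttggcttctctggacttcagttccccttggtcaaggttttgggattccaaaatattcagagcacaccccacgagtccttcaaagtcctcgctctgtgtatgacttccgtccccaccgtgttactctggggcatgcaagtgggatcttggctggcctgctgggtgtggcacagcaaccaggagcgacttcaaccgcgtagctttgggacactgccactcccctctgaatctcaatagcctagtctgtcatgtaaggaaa
In the Adamts1 window TGACG begins 170 bases and TATAAA 32 bases before the start, and the Col15a1 window has no match to any of the motifs. Promoter entries were found for 24 of the 40 genes, with 27 windows. TGACGTCA was in 0 of these 27 and in 1.79% of all 32851 windows of the table. TGACG was in 3 of 27 (11.1%: Adamts1, Adamts9 and Timp1) and in 20.8% of all windows. TGANTCA was in 2 of 27 (7.41%: Col6a1 and Mmp3) and in 7.81% of all, TATAAA in 5 of 27 (18.5%) and in 13.6% of all, and CCAAT in 10 of 27 (37%) and in 37.4% of all. A match is a run of letters and does not show that a factor binds there.

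**Figure D2:**
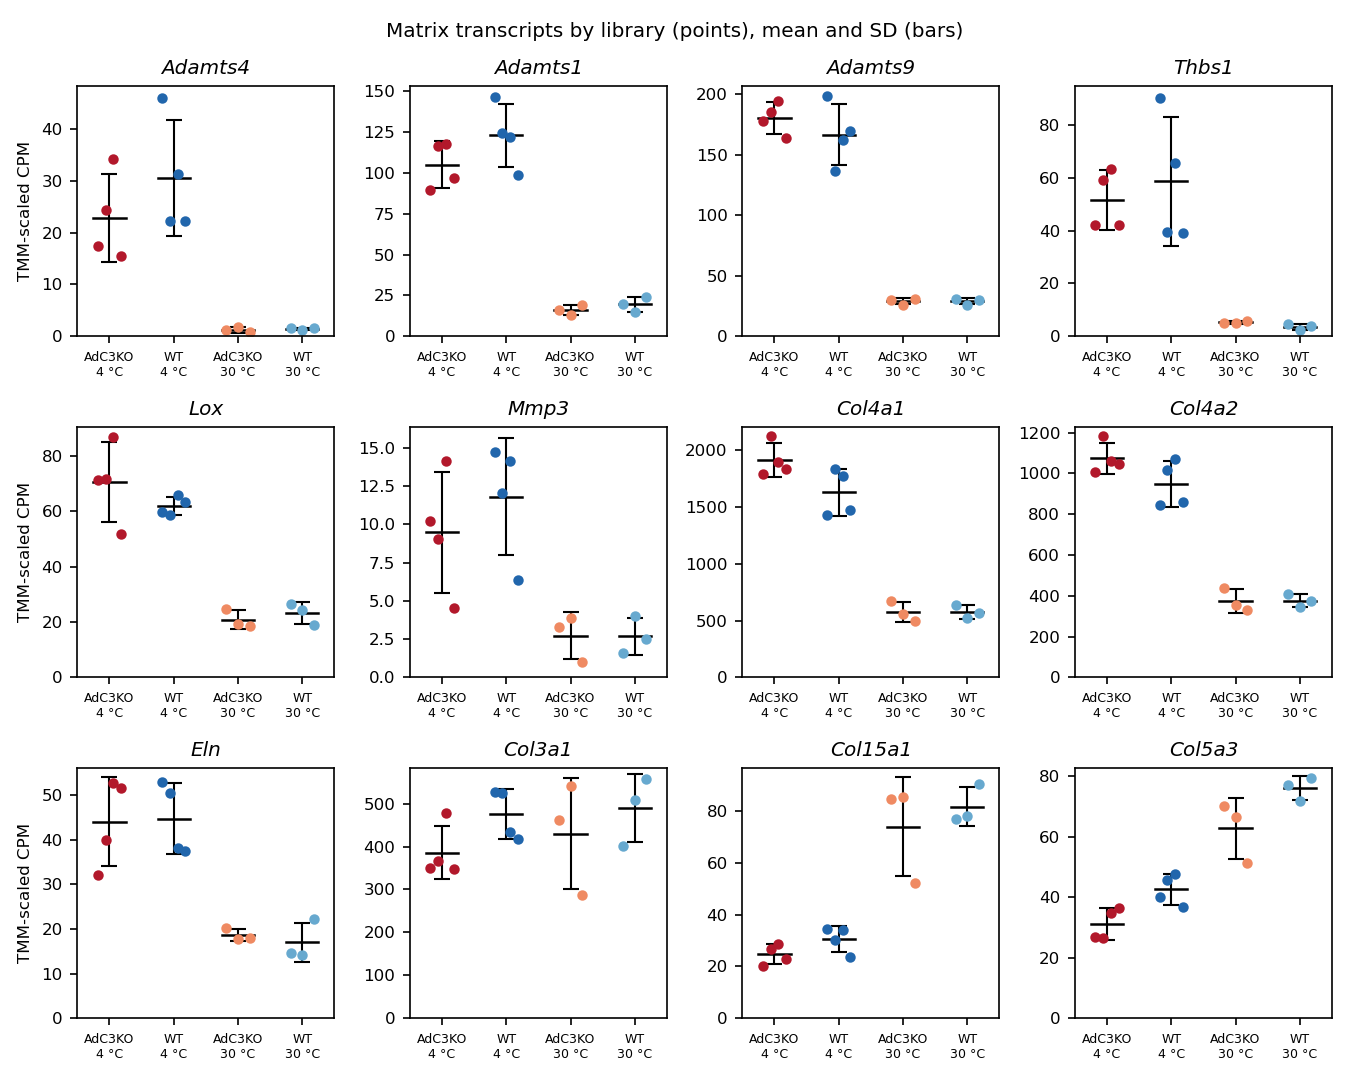
TMM-scaled CPM (vertical axes, from 0) of 12 of the genes in each library, with points for libraries and bars for the mean and SD of AdC3KO at 4 °C, WT at 4 °C, AdC3KO at 30 °C and WT at 30 °C. The libraries at 4 °C lie above those at 30 °C for 9 of the genes, below them for Col15a1 and Col5a3, and among them for Col3a1.

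The 4 basement membrane and multiplexin collagens split. Col4a1 and Col4a2, the chains of the commonest type IV collagen molecule, were among the most abundant members and both rose. Col4a1 was at 1788, 2124, 1902 and 1832 CPM in AdC3KO at 4 °C, against 674, 554 and 500.5 CPM in AdC3KO at 30 °C. In WT it was at 1434, 1839, 1770.0 and 1473 CPM at 4 °C, against 639.8, 524 and 565 CPM at 30 °C. Every library at 4 °C was above every library at 30 °C. The change was 3.32-fold in AdC3KO (log2 1.73, SE 0.13, adjusted p = 1.56e-08, edgeR) and 2.83-fold in WT (log2 1.499, SE 0.13, adjusted p = 7.12e-08). Col4a2 was at 1005, 1184, 1060.1 and 1045 CPM in AdC3KO at 4 °C, against 439, 352 and 331 CPM in AdC3KO at 30 °C. In WT the values were 845, 1018, 1069.5 and 861 CPM at 4 °C, against 407, 344 and 375 CPM at 30 °C. Its log2 fold change was 1.52 (SE 0.12, adjusted p = 2.87e-08) in AdC3KO and 1.34 (SE 0.12, adjusted p = 1.2e-07) in WT.

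Col4a1 and Col4a2 lie head to head on chromosome 8 and move together, so the sequence at their shared start is shown. Their RefSeq starts are 21 bases apart on opposite strands, and their first exons overlap by 22 bases. The windows share 78 bases, so that the end of one is the reverse complement of the end of the other. Capitals again mark the motifs spelled out above.
Col4a1, chr8:11312777-11313076, minus strand: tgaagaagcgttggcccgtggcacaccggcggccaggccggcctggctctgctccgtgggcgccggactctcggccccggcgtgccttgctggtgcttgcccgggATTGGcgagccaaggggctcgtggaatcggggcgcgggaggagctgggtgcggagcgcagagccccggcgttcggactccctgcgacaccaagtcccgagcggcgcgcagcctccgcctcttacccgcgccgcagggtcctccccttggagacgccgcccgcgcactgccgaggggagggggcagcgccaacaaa
Col4a2, chr8:11312555-11312854, plus strand: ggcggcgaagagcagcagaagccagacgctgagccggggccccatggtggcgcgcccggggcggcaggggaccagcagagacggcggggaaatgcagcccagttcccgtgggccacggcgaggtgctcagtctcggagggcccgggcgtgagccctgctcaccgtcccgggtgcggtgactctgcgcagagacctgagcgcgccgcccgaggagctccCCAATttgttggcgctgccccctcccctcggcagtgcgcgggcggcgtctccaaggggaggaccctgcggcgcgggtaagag
Both windows hold the CCAAT box, 145 bases before the Col4a1 start, where it reads ATTGG on the strand shown, and 32 bases before the Col4a2 start. Their GC content is 74% for Col4a1 and 73.7% for Col4a2, against 64.7% for Adamts1 and 52.3% for Col15a1.

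Col15a1, whose chain sits between the basement membrane and the fibres and bridges them, fell more than any other member. It was at 20.1, 26.7, 28.8 and 22.9 CPM in AdC3KO at 4 °C, against 84.6, 85.1 and 52.0 CPM in AdC3KO at 30 °C. In WT it was at 34.2, 30.1, 34.1 and 23.7 CPM at 4 °C, against 76.7, 77.8 and 90.2 CPM at 30 °C. It was 3.01-fold lower in AdC3KO (log2 −1.59, SE 0.17, adjusted p = 1.41e-06, edgeR) and 2.67-fold lower in WT (log2 −1.42, SE 0.17, adjusted p = 4.70e-06). Col18a1, the other multiplexin and the source of endostatin, passed the test in AdC3KO (0.42, SE 0.18, adjusted p = 0.0478) and had a log2 fold change of 0.38 (SE 0.18, adjusted p = 0.0763) in WT. The AdC3KO call of Col18a1 is lost without AdC3KO replicate 2, 3 or 4 at 4 °C (adjusted p = 0.0645, 0.118 and 0.0606), without AdC3KO replicate 2 or 3 at 30 °C (0.0996 and 0.221), without WT replicate 3 at 4 °C (0.0564) and without WT replicate 2 at 30 °C (0.0585). It is also lost with upper-quartile scaling (0.19, adjusted p = 0.362), no filter on low counts (0.33, adjusted p = 0.127), a filter at 5 CPM (0.27, adjusted p = 0.194) and total counts (0.02, adjusted p = 0.911). In WT, Col18a1 was called without replicate 1 at 30 °C (0.56, adjusted p = 0.0202) or replicate 4 at 4 °C (0.46, adjusted p = 0.0371).

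No fibrillar collagen rose. Col3a1, the most abundant of them, was at 351, 365, 478 and 349 CPM in AdC3KO at 4 °C, against 461, 541 and 288 CPM in AdC3KO at 30 °C. WT libraries had 528, 525, 434 and 417 CPM at 4 °C, against 402, 508 and 557 CPM at 30 °C. The groups overlapped, and the change on the log2 scale was −0.16 (SE 0.19, adjusted p = 0.481, edgeR) in AdC3KO and −0.04 (SE 0.19, adjusted p = 0.868) in WT. The type I chains Col1a1 and Col1a2 had log2 fold changes of −0.20 (adjusted p = 0.471) and −0.19 (adjusted p = 0.419) in AdC3KO, and of −0.16 (adjusted p = 0.588) and −0.10 (adjusted p = 0.698) in WT. These values depend on the scaling. With total counts, Col3a1 (−0.57, adjusted p = 0.0134), Col1a1 (−0.62, adjusted p = 0.0252) and Col1a2 (−0.60, adjusted p = 0.0114) were called lower in AdC3KO, and Col1a2 (−0.45, adjusted p = 0.0482) in WT. The 3 type V chains, which join and limit the width of type I fibres, did not move as one. Col5a3 was at 26.9, 26.4, 34.9 and 36.4 CPM in AdC3KO at 4 °C, against 70.2, 66.6 and 51.4 CPM in AdC3KO at 30 °C. WT had 40.2, 45.7, 47.9 and 36.7 CPM of Col5a3 at 4 °C, against 77.2, 71.8 and 79.3 CPM at 30 °C. Its log2 fold change was −1.01 (SE 0.13, adjusted p = 6.52e-06) in AdC3KO and −0.84 (SE 0.13, adjusted p = 4.70e-05) in WT, with no overlap between temperatures. Col5a1 fell by 0.87 (SE 0.19, adjusted p = 8.43e-04) in AdC3KO and by 0.84 (SE 0.19, adjusted p = 0.00119) in WT, while Col5a2 had a log2 fold change of 0.19 in both (SE 0.17, adjusted p = 0.353 in AdC3KO and 0.363 in WT).

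All 3 type VI chains, which form beaded filaments near cell surfaces and around adipocytes, fell. Col6a1 was at 57.5, 62.9, 75.3 and 62.0 CPM in AdC3KO at 4 °C, against 118, 119 and 82.1 CPM in AdC3KO at 30 °C. WT libraries had 86.0, 78.2, 65.3 and 74.2 CPM at 4 °C, against 113, 122 and 125 CPM at 30 °C. The log2 fold changes in AdC3KO were −0.73 (SE 0.13, adjusted p = 1.26e-04, edgeR) for Col6a1, −0.68 (SE 0.13, adjusted p = 2.27e-04) for Col6a2 and −0.88 (SE 0.16, adjusted p = 2.63e-04) for Col6a3. In WT they were −0.66 (SE 0.13, adjusted p = 3.08e-04), −0.63 (SE 0.13, adjusted p = 4.86e-04) and −0.78 (SE 0.16, adjusted p = 8.04e-04) in the same order. Without the libraries that hold muscle transcripts, which leaves 1 AdC3KO library at 30 °C, Col6a3 in AdC3KO was at −0.29 (adjusted p = 0.158). The short-chain collagen Col8a1, known from vessel walls and the eye, was low, at 2.24, 4.52, 3.18 and 4.59 CPM in AdC3KO at 4 °C, against 7.88, 6.47 and 7.72 CPM in AdC3KO at 30 °C. In WT it was at 3.71, 5.34, 3.42 and 3.14 CPM at 4 °C, against 6.75, 5.99 and 7.64 CPM at 30 °C, and it fell in both, by 1.02 (SE 0.24, adjusted p = 0.00146) in AdC3KO and by 0.80 (SE 0.24, adjusted p = 0.00863) in WT. Col12a1 and Col14a1, which sit on the surface of fibrils, had log2 fold changes of 0.13 (adjusted p = 0.667) and 0.11 (adjusted p = 0.789) in AdC3KO and of 0.09 (adjusted p = 0.771) and 0.23 (adjusted p = 0.575) in WT.

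Counts divided by the length of the merged annotated exons put the chains on a common scale, and the mix of collagen transcripts was then very different at 4 °C. Type IV made up 74.1% to 79.7% of the length-scaled collagen counts in AdC3KO at 4 °C, 66.7% to 75.3% in WT at 4 °C, 40.04% to 50.5% in AdC3KO at 30 °C and 40.2% to 47.7% in WT at 30 °C. No library at 4 °C was below 66.7% and none at 30 °C was above 50.5%. Type VI made up 4.41% to 5.55% in AdC3KO at 4 °C, 5.49% to 7.24% in WT at 4 °C, 14.4% to 15.7% in AdC3KO at 30 °C and 15.6% to 16.7% in WT at 30 °C. The shares of types I and III also ended lower, with medians of 4.58% and 7.08% in AdC3KO and 6.48% and 9.52% in WT at 4 °C, against 9.27% and 14.3% in AdC3KO and 11.8% and 17.2% in WT at 30 °C. A share falls when another collagen rises, and the CPM levels of Col1a1, Col1a2 and Col3a1 did not pass the test with TMM scaling, while with total counts all 3 were called lower in AdC3KO and Col1a2 in WT. The shares do not depend on the scaling between libraries, but their size depends on the exon lengths used. They are a description and were not tested.

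**Figure D3:**
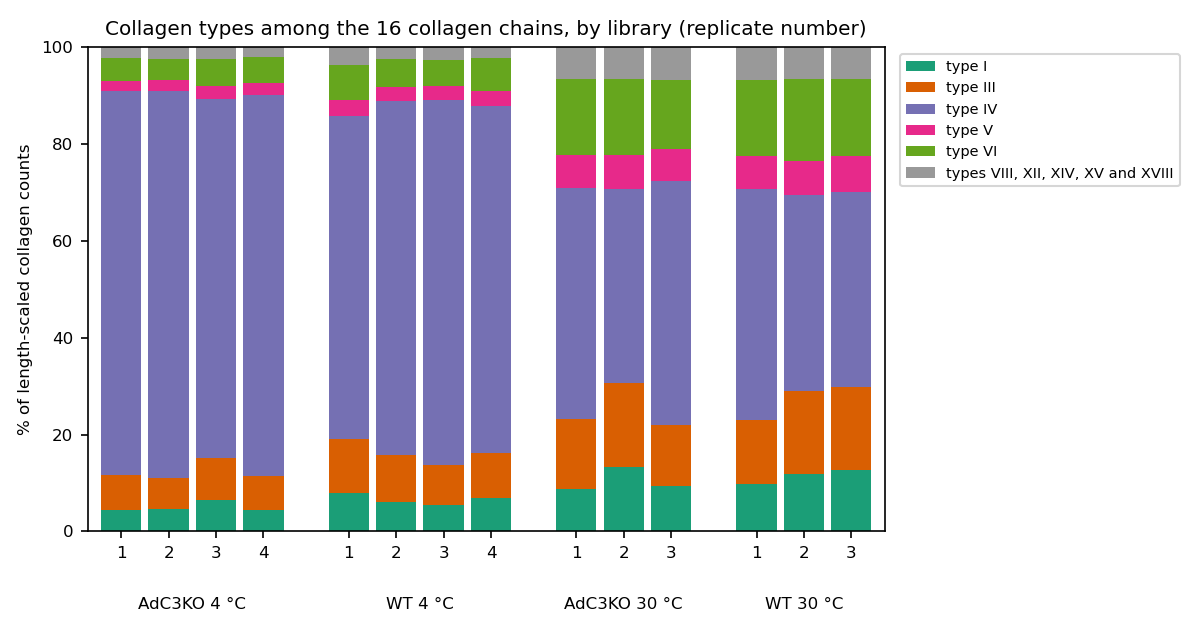
Share of each collagen type among the length-scaled counts of the 16 collagen chains (vertical axis, % of counts per kb of exon) in each library, 1 bar per library with its replicate number, grouped as AdC3KO at 4 °C, WT at 4 °C, AdC3KO at 30 °C and WT at 30 °C. Type IV takes 66.7% to 79.7% of the bar in the 8 libraries at 4 °C and 40.04% to 50.5% in the 6 libraries at 30 °C.

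Ratios of partner chains within a library, and of Col4a1 to Col15a1 and to Col3a1, were compared after the values were seen. Between temperatures the libraries were exchanged within each genotype. The ratio of Col4a1 to Col4a2 counts per kb was 1.58 ± 0.02 in AdC3KO at 4 °C and 1.52 ± 0.06 in WT at 4 °C (SD, n = 4 each), against 1.37 ± 0.03 in AdC3KO and 1.36 ± 0.03 in WT at 30 °C (SD, n = 3 each). It was 1.14-fold higher at 4 °C, and all 8 libraries at 4 °C were above all 6 at 30 °C (exact two-sided permutation test, p = 0.000816, the smallest that 1225 regroupings allow, adjusted p = 0.00327 over 12 ratio tests). Col6a1 to Col6a2 was 1.97 ± 0.11 in AdC3KO and 1.99 ± 0.22 in WT at 4 °C (SD, n = 4 each), and 2.03 ± 0.05 in AdC3KO and 2.04 ± 0.04 in WT at 30 °C (SD, n = 3 each), a log2 difference of −0.05 (exact permutation p = 0.425, adjusted p = 0.567). For Col6a3 to Col6a1 it was −0.12 (exact permutation p = 0.171, adjusted p = 0.256). For Col1a1 to Col1a2 the log2 difference between temperatures was −0.03 (exact permutation p = 0.534, adjusted p = 0.641), and that between AdC3KO and WT was −0.13 (exact permutation p = 0.0214, adjusted p = 0.0549). The last ratio averaged 1.24 in AdC3KO and 1.33 in WT at 4 °C, and 1.24 in AdC3KO and 1.38 in WT at 30 °C. It passed the adjusted exact permutation test when AdC3KO replicate 2 at 30 °C, WT replicate 2 at 4 °C, AdC3KO replicate 2 at 4 °C or AdC3KO replicate 3 at 4 °C was left out (adjusted p = 0.0386 to 0.0429). Col4a1 against chains outside type IV moved further. Col4a1 to Col15a1 was 56.2 to 75.5 in AdC3KO and 35.6 to 52.8 in WT at 4 °C, against 5.54 to 8.18 in AdC3KO and 5.32 to 7.09 in WT at 30 °C, 8.65-fold higher at 4 °C. Among the collagen members Col4a1 rose most and Col15a1 fell most, so the choice of this pair fixed the separation. No test between temperatures is read from it. The pairs with Col15a1 and Col3a1 are among the 12 ratio tests, so the adjusted p of the other ratios depends on that choice. Col4a1 to Col3a1 was 5.24 to 7.65 in AdC3KO and 3.57 to 5.37 in WT at 4 °C, against 1.35 to 2.29 in AdC3KO and 1.33 to 2.09 in WT at 30 °C. Between AdC3KO and WT the log2 difference was 0.36 for Col4a1 to Col15a1 (exact permutation p = 0.0229, adjusted p = 0.0549) and 0.38 for Col4a1 to Col3a1 (exact permutation p = 0.0486, adjusted p = 0.0971). Both passed without WT replicate 1 at 30 °C (adjusted exact permutation p = 0.0214 for Col15a1 and 0.0377 for Col3a1) or AdC3KO replicate 2 at 30 °C (0.0257 and 0.0411). These adjusted p-values also depend on the choice of the pairs, and no genotype difference is read from them. The absolute value of each ratio depends on the annotated exon lengths, while its change between libraries does not.

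**Figure D4:**
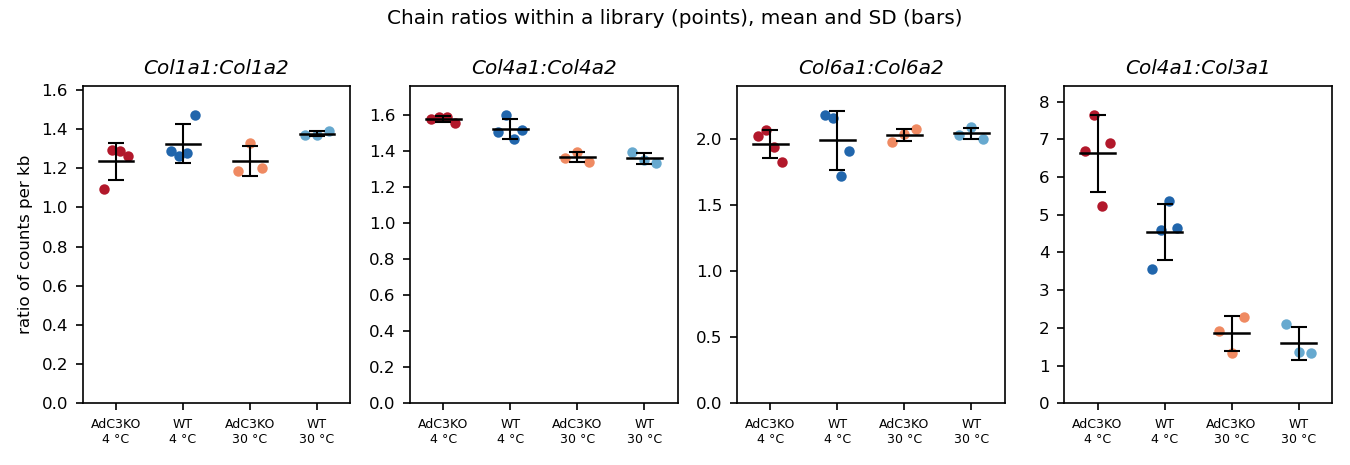
Ratio of counts per kb of exon between pairs of collagen chains (vertical axes, from 0), with points for libraries and bars for the mean and SD of AdC3KO at 4 °C, WT at 4 °C, AdC3KO at 30 °C and WT at 30 °C. Col4a1 to Col4a2 and Col4a1 to Col3a1 are higher in every library at 4 °C than in any at 30 °C, whereas the groups overlap for Col1a1 to Col1a2 and Col6a1 to Col6a2.

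Among glycoproteins and elastic fibre proteins, the thrombospondins rose most. Thbs1, a matricellular protein that binds cell surfaces and can activate latent TGF-beta, was at 42.1, 59.0, 63.4 and 42.0 CPM in AdC3KO at 4 °C, against 4.87, 5.13 and 5.76 CPM in AdC3KO at 30 °C. In WT it was at 90.4, 39.5, 65.7 and 39.3 CPM at 4 °C, against 4.64, 2.47 and 3.94 CPM at 30 °C. The lowest library at 4 °C was well above the highest at 30 °C, and the change was 9.82-fold in AdC3KO (log2 3.30, SE 0.33, adjusted p = 2.09e-06, edgeR) and 15.9-fold in WT (log2 3.99, SE 0.35, adjusted p = 5.82e-07). Thbs2, its relative that restrains vessel growth in mice, was at 9.55, 11.4, 15.5 and 5.77 CPM in AdC3KO at 4 °C, against 3.86, 5.13 and 3.51 CPM in AdC3KO at 30 °C. WT had 23.3, 17.5, 20.04 and 9.79 CPM of Thbs2 at 4 °C, against 5.34, 3.31 and 4.29 CPM at 30 °C. Its log2 fold change was 1.34 (SE 0.33, adjusted p = 0.00301) in AdC3KO and 2.03 (SE 0.34, adjusted p = 1.34e-04) in WT. Without the libraries that hold muscle transcripts the AdC3KO value was 1.34 with adjusted p = 0.1.

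Eln, which encodes elastin, was at 32.0, 39.8, 52.7 and 51.6 CPM in AdC3KO at 4 °C, against 20.2, 17.7 and 17.9 CPM in AdC3KO at 30 °C. The WT values were 52.8, 50.4, 38.2 and 37.4 CPM at 4 °C, against 14.7, 14.2 and 22.1 CPM at 30 °C. It rose by 1.24 (SE 0.20, adjusted p = 6.76e-05, edgeR) in AdC3KO and by 1.39 (SE 0.20, adjusted p = 2.55e-05) in WT, and no library at 4 °C reached down to those at 30 °C. Postn, a matricellular protein known from tissue repair, rose by 0.68 (SE 0.14, adjusted p = 3.86e-04) in AdC3KO and by 0.91 (SE 0.14, adjusted p = 2.65e-05) in WT. Sparc, a collagen-binding glycoprotein and per kb the most abundant member in every group, was at 880, 977, 1073 and 1042 CPM in AdC3KO at 4 °C, against 775, 804 and 758 CPM in AdC3KO at 30 °C. In WT it stood at 1213, 1026, 1114 and 929 CPM at 4 °C, against 844, 888 and 790.1 CPM at 30 °C. Its log2 fold change of 0.35 (SE 0.10) in both genotypes passed the test (adjusted p = 0.00820 in AdC3KO and 0.00871 in WT) and depends on the scaling: it was 0.12 in AdC3KO and 0.11 in WT with upper-quartile scaling, and −0.04 in AdC3KO and −0.01 in WT with total counts.

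Dcn and Lum are small leucine-rich proteoglycans that bind collagen fibrils. Lum fell by 0.55 (SE 0.15, adjusted p = 0.00409, edgeR) in AdC3KO and by 0.41 (SE 0.15, adjusted p = 0.0251) in WT. Dcn passed the test in WT (0.35, SE 0.13, adjusted p = 0.0330) and had a log2 fold change of 0.30 (SE 0.13, adjusted p = 0.0591) in AdC3KO, and with total counts the WT value was −0.0083. In AdC3KO, Dcn was called by DESeq2 (0.32, adjusted p = 0.0425), with relative log expression scaling (0.32, adjusted p = 0.0475), and without AdC3KO replicate 2 at 30 °C, AdC3KO replicate 1 at 4 °C, or WT replicate 1 or 4 at 4 °C (adjusted p = 0.0214 to 0.0448). In WT the call is also lost with upper-quartile scaling (0.11, adjusted p = 0.492), no filter on low counts (0.26, adjusted p = 0.0940) and a filter at 5 CPM (0.19, adjusted p = 0.215). Its WT call is lost without WT replicate 1 or 2 at 4 °C (adjusted p = 0.132 and 0.0618) or at 30 °C (0.151 and 0.0710). Lum lost its call in WT without replicate 2 at 30 °C (adjusted p = 0.162) or replicate 1 at 4 °C (adjusted p = 0.0529). Fn1, which encodes fibronectin, had log2 fold changes of 0.29 in AdC3KO (SE 0.33, adjusted p = 0.457) and 0.29 in WT (SE 0.33, adjusted p = 0.474). Fbn1, which encodes the microfibril protein fibrillin-1, had −0.22 in AdC3KO (adjusted p = 0.457) and −0.31 in WT (adjusted p = 0.292), and with total counts was called lower in AdC3KO (−0.63, adjusted p = 0.0279) and in WT (−0.67, adjusted p = 0.0202).

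Of the crosslinkers, Lox rose most. It was at 71.4, 71.8, 87.0 and 51.9 CPM in AdC3KO at 4 °C, against 24.8, 19.3 and 18.4 CPM in AdC3KO at 30 °C. WT had 59.7, 58.9, 66.04 and 63.3 CPM at 4 °C, against 26.5, 24.4 and 18.8 CPM at 30 °C. The change was 3.39-fold in AdC3KO (log2 1.76, SE 0.16, adjusted p = 1.66e-07, edgeR) and 2.67-fold in WT (log2 1.42, SE 0.16, adjusted p = 1.71e-06), and the temperatures did not overlap. Loxl2, which acts on type IV collagen of basement membranes, rose by 0.83 (SE 0.15, adjusted p = 2.14e-04) in AdC3KO and by 0.78 (SE 0.15, adjusted p = 3.78e-04) in WT. Loxl1, which crosslinks elastin, passed the test in WT at −0.37 (SE 0.14, adjusted p = 0.0310) and was at −0.17 (SE 0.14, adjusted p = 0.310) in AdC3KO, where it was called with upper-quartile scaling (−0.40, adjusted p = 0.0186), a filter at 5 CPM (−0.32, adjusted p = 0.0470) and total counts (−0.57, adjusted p = 0.00224). The WT call of Loxl1 is lost without WT replicate 2 or 4 at 4 °C (adjusted p = 0.0758 and 0.0764) and without WT replicate 1, 2 or 3 at 30 °C (0.0734, 0.0600 and 0.0784).

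The MMPs differed among themselves. Mmp3, a broad protease known as stromelysin, was low, at 10.2, 9.04, 14.1 and 4.55 CPM in AdC3KO at 4 °C, against 3.30, 3.87 and 0.997 CPM in AdC3KO at 30 °C. WT levels were 14.7, 12.1, 14.1 and 6.36 CPM at 4 °C, against 1.57, 3.99 and 2.50 CPM at 30 °C. It rose by 1.79 (SE 0.50, adjusted p = 0.00686, edgeR) in AdC3KO and by 2.13 (SE 0.50, adjusted p = 0.00260) in WT. Mmp2, a gelatinase, was per kb the most abundant of the 4 in each group but AdC3KO at 4 °C. There it was at 6.66 CPM per kb and Mmp19 at 6.69. Mmp2 was at 19.1, 21.5, 29.4 and 19.8 CPM in AdC3KO at 4 °C, against 30.5, 33.5 and 21.9 CPM in AdC3KO at 30 °C. WT had 36.1, 24.8, 26.3 and 23.7 CPM of Mmp2 at 4 °C, against 25.3, 29.1 and 35.5 CPM at 30 °C. The groups overlapped, with log2 fold changes of −0.35 (SE 0.19, adjusted p = 0.118) in AdC3KO and −0.12 (SE 0.19, adjusted p = 0.616) in WT. Mmp2 was called lower in AdC3KO with upper-quartile scaling (−0.59, adjusted p = 0.0121), with a filter at 5 CPM (−0.51, adjusted p = 0.0250), without AdC3KO replicate 3 at 30 °C (−0.51, adjusted p = 0.0345) or at 4 °C (−0.49, adjusted p = 0.0290), and with total counts in AdC3KO (−0.76, adjusted p = 9.56e-04) and WT (−0.48, adjusted p = 0.0216). Mmp14, the membrane-bound protease that activates pro-MMP2, was at −0.01 (adjusted p = 0.966) in AdC3KO and 0.31 (adjusted p = 0.128) in WT, and Mmp19 at 0.36 (adjusted p = 0.0551) in AdC3KO and 0.29 (adjusted p = 0.125) in WT. With total counts Mmp14 was called lower in AdC3KO (−0.41, adjusted p = 0.0365). Mmp19 was called higher in AdC3KO by DESeq2 (0.38, adjusted p = 0.0410), with relative log expression scaling (0.38, adjusted p = 0.0449), and without AdC3KO replicate 1 (0.49, adjusted p = 0.0107), WT replicate 1 (0.37, adjusted p = 0.0270) or WT replicate 4 (0.38, adjusted p = 0.0324) at 4 °C. Exons of another gene on the other strand cover 22.3% of the exon length of Mmp19.

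Among the inhibitors, Timp3, the TIMP that stays bound to the matrix and also blocks ADAMTS proteases, rose in both genotypes. It was at 185, 298, 244 and 237 CPM in AdC3KO at 4 °C, against 165, 89.96 and 127 CPM in AdC3KO at 30 °C. In WT the values were 325, 217, 269 and 167 CPM at 4 °C, against 142, 93.6 and 132 CPM at 30 °C. Its log2 fold change was 0.92 (SE 0.26, adjusted p = 0.00669, edgeR) in AdC3KO and 0.995 (SE 0.26, adjusted p = 0.00443) in WT, and total counts ended the AdC3KO call (0.53, adjusted p = 0.0603). Exons of Syn3 on the other strand cover 21.3% of its exon length. Timp4, abundant in fat and heart, was at 105, 123, 132 and 122 CPM in AdC3KO at 4 °C, against 95.4, 73.2 and 125 CPM in AdC3KO at 30 °C. WT libraries had 109, 128, 116 and 118 CPM at 4 °C, against 98.5, 76.9 and 93.4 CPM at 30 °C. It passed the test in WT (0.39, SE 0.14, adjusted p = 0.0262) and was at 0.30 (SE 0.14, adjusted p = 0.0790) in AdC3KO, where replicate 3 at 30 °C overlapped the 4 °C libraries. Without that library the AdC3KO value was 0.51 (adjusted p = 0.00376), and the WT call is lost without WT replicate 2 at 4 °C (0.0738) or WT replicate 2 at 30 °C (0.126), with upper-quartile scaling (0.15, adjusted p = 0.374) and with total counts (0.04, adjusted p = 0.831). Timp1, an inhibitor known to be induced by injury and cytokines, was the scarcest of them, at 1.42, 1.64, 0.73 and 0.84 CPM in AdC3KO at 4 °C, against 1.08, 0.48 and 0.41 CPM in AdC3KO at 30 °C. WT had 2.00, 0.58, 0.90 and 2.57 CPM of Timp1 at 4 °C, against 0.50, 0.72 and 0.28 CPM at 30 °C. It passed in WT (1.61, SE 0.55, adjusted p = 0.0181), where the groups overlapped, and was at 0.81 (SE 0.53, adjusted p = 0.191) in AdC3KO. The WT call is lost without WT replicate 3 at 30 °C (adjusted p = 0.0820) or WT replicate 4 at 4 °C (adjusted p = 0.0615), the library highest in interferon genes, or with total counts (1.26, adjusted p = 0.0553). Timp2, which both inhibits MMPs and helps activate pro-MMP2, had log2 fold changes of −0.11 (adjusted p = 0.647) in AdC3KO and 0.01 (adjusted p = 0.981) in WT, and with total counts was called lower in AdC3KO (−0.52, adjusted p = 0.0199).

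Levels set per kb of exon gave the same leading genes in each group. Sparc was at 262 ± 22.4 and Col4a1 at 256 ± 20.01 CPM per kb in AdC3KO at 4 °C, within their spread of each other, and at 283 ± 32.0 and 218 ± 27.5 CPM per kb in WT at 4 °C (SD, n = 4 each). At 30 °C Sparc was far above Col4a1, with 206 ± 6.06 and 77.2 ± 11.9 CPM per kb in AdC3KO and 222 ± 12.9 and 77.2 ± 7.85 CPM per kb in WT (SD, n = 3 each). Col4a2, Col3a1 and Dcn came next in all 4 groups. Adamts1 stood in place 9 in AdC3KO and place 8 in WT at 4 °C, against place 27 in AdC3KO and place 26 in WT at 30 °C.

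The knockout was set against WT at each temperature, to ask whether loss of CLSTN3B in adipocytes goes with other matrix transcripts. At 4 °C, 0 of the 40 members differed by edgeR's quasi-likelihood test after Benjamini-Hochberg adjustment, where 0.0502% of all tested genes did, and DESeq2 called 0 members. At an unadjusted p under 0.05, 2 members passed, both lower in AdC3KO, where 4.8% of all genes passed in either direction. These were Col5a3, with a log2 difference of −0.45 (SE 0.13, adjusted p = 0.702), and Thbs2, with −0.74 (SE 0.29, adjusted p = 0.963). Col5a3 was the only member whose AdC3KO and WT libraries at 4 °C did not overlap, which 2.27% of all genes did, with 36.4 CPM in the highest AdC3KO library and 36.7 CPM in the lowest WT library. At 30 °C, 0 members differed (0.0439% of all genes), 0 did by DESeq2 and 0 passed an unadjusted p under 0.05 (1.33% of all genes). Col5a3 and Thbs1 were the 2 members without overlap there (7.29% of all genes). Col5a3 was at −0.28 (SE 0.14, adjusted p = 1) and Thbs1 at 0.51 (SE 0.35, adjusted p = 1).

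Small differences that did not pass the test were more often negative than positive. Of the 40 members, 31 had a negative log2 difference at 4 °C, with a median of −0.16 against −0.01 over all tested genes, and 28 had one at 30 °C, with a median of −0.06 against 0.01. A positive difference was found for 9 members at 4 °C and 12 at 30 °C. Of all 15949 tested genes, 7738 had a positive one at 4 °C and 8477 at 30 °C. All 6 fibrillar chains were negative at both temperatures, between −0.45 and −0.11 at 4 °C and between −0.28 and −0.11 at 30 °C. Type IV chains were the other way at 4 °C, with 0.23 (SE 0.12, adjusted p = 0.963) for Col4a1 and 0.18 (SE 0.11, adjusted p = 0.963) for Col4a2, and at −0.0003 and −0.0051 at 30 °C. The members share libraries and cells and are not replicates of one another, and no test was made of these counts. AdC3KO replicate 3 at 30 °C had the lowest Col1a1, Col1a2 and Col3a1 of all its temperature, at 77.0, 121 and 288 CPM, and also the lowest sum of 10 fibroblast markers, 824 CPM. Most of that sum is 1 gene, Gsn, which averaged 751 CPM in AdC3KO at 30 °C. Without that library the median of the members at 30 °C was 0.05. The library was singled out after its low values were seen, so this median tests nothing. The part of fibroblasts in these differences was not tested. The median SE of a member was 0.16 at 4 °C and 0.19 at 30 °C on the log2 scale.

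**Figure D5:**
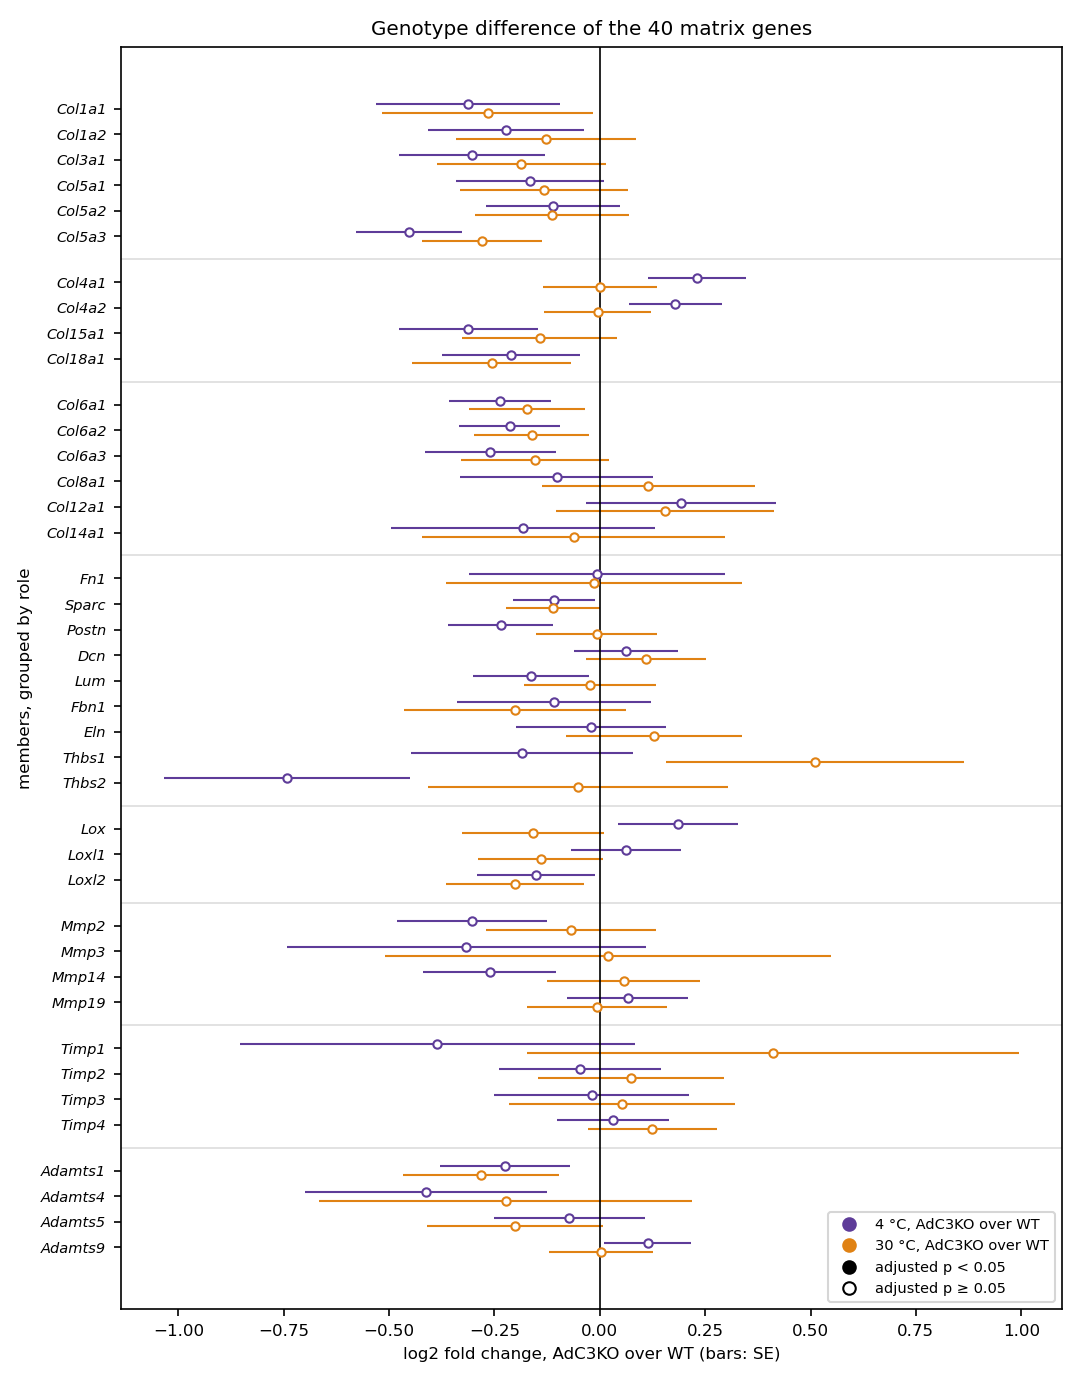
Log2 difference of AdC3KO over WT for each of the 40 genes (horizontal axis), with 4 °C in purple above 30 °C in orange and standard errors as bars. All points are open because none passed an adjusted p of 0.05, and 31 lie below 0 at 4 °C and 28 at 30 °C.

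The difference between the cold responses, AdC3KO minus WT, passed for 0 members (0% of all genes) by edgeR and 0 by DESeq2, and 0 passed an unadjusted p under 0.05, which 2.19% of all genes did. It ran between −0.80 (SE 0.75) for Timp1 and 0.34 (SE 0.22) for Lox, each with adjusted p = 1, and was −0.69 for Thbs1 (SE 0.44) and −0.69 for Thbs2 (SE 0.46). The calls that one genotype has and the other lacks (Col18a1, Dcn, Loxl1, Timp1 and Timp4) are therefore not shown to differ between genotypes. The median SE of this difference was 0.25.

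Further genes of the matrix, 155 from 8 classes that hold none of the members, were counted in the same fit, and 136 were tested. In AdC3KO 33 were higher and 53 lower at 4 °C, in WT 36 were higher and 47 lower, and 0 differed between AdC3KO and WT at either temperature. The counts by class that follow stand against 31% of all tested genes higher and 32.1% lower in AdC3KO, and 30.6% higher and 30.8% lower in WT, and no class was tested against the rest. The median log2 fold change of these 136 was −0.24 in AdC3KO and −0.13 in WT. Basement membrane genes other than Col4a1 and Col4a2 did not rise together: 4 of 15 rose and 4 fell in AdC3KO, and 3 rose and 4 fell in WT. The laminin chain Lamb1 averaged 752 CPM at 4 °C against 159 CPM at 30 °C in AdC3KO, and 709.9 ± 46.1 CPM at 4 °C (SD, n = 4) against 138 ± 24.1 CPM at 30 °C (SD, n = 3) in WT. Agrn, which encodes the heparan sulfate proteoglycan agrin, fell by 1.61 (SE 0.13) and 1.64 (SE 0.13), and Col4a5, a chain of another type IV molecule, fell by 1.62 (SE 0.19) and 1.54 (SE 0.19), in AdC3KO and WT in that order. Of 20 tested genes of collagen synthesis and crosslinking, 8 rose and 8 fell in AdC3KO, and 7 rose and 7 fell in WT. Among them, P4ha1, a subunit of the prolyl hydroxylase that stabilises the triple helix, rose by 2.43 (SE 0.27) in AdC3KO and 2.18 (SE 0.27) in WT, and Plod2, a lysyl hydroxylase that prepares crosslinks, by 2.51 (SE 0.14) in AdC3KO and 2.30 (SE 0.14) in WT. Crtap, part of the prolyl 3-hydroxylation complex, fell by 1.76 (SE 0.12) in AdC3KO and 1.66 (SE 0.12) in WT, and its relative P3h4 by 1.17 (SE 0.16) in both.

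Of 15 elastic fibre and microfibril genes, 1 was higher and 7 were lower in AdC3KO, and 3 were higher and 8 lower in WT. Ltbp2, which binds fibrillin microfibrils, was at 43.0 CPM at 4 °C against 261 CPM at 30 °C in AdC3KO, and at 40.7 ± 5.06 CPM against 257 ± 17.7 CPM in WT, a log2 fold change of −2.60 (SE 0.13) in AdC3KO and −2.66 (SE 0.13) in WT, while the microfibril protein Mfap5 rose by 0.74 (SE 0.23) in AdC3KO and 0.86 (SE 0.24) in WT. Fbln1 passed in WT alone, with 0.43 (adjusted p = 0.220, edgeR) in AdC3KO and 0.76 (adjusted p = 0.0359) in WT, and Fbn2 was under 1 CPM in each group. Of 25 cell receptors for matrix, 8 rose and 10 fell in AdC3KO, and 10 rose and 9 fell in WT. Sdc4, a heparan sulfate receptor, rose by 3.19 (SE 0.18) in AdC3KO and 3.14 (SE 0.18) in WT, and Itga3, a laminin-binding integrin chain, by 3.38 (SE 0.42) and 3.07 (SE 0.41). Itga7, another laminin receptor chain, fell by 1.73 (SE 0.13) and 1.46 (SE 0.13), and the collagen receptor Ddr1 by 1.17 (SE 0.22) and 1.75 (SE 0.22), with AdC3KO first in each pair. Among 27 further proteases and inhibitors, 5 rose and 11 fell in AdC3KO, and 5 rose and 8 fell in WT. Adamts15 rose by 2.85 (SE 0.69) in AdC3KO and 2.09 (SE 0.66) in WT. Mmp11 fell by 2.30 (SE 0.36) and 2.48 (SE 0.36), and Adamts16, under 1 CPM in each group, by 2.17 (SE 0.66) and 2.52 (SE 0.68). Of 13 matricellular genes, 4 rose and 4 fell in AdC3KO, and 3 rose and 4 fell in WT. Ccn2, known as connective tissue growth factor, rose by 3.31 (SE 0.52) in AdC3KO and 2.54 (SE 0.50) in WT, and Tnc, which encodes tenascin-C, by 2.26 (SE 0.32) in AdC3KO and 1.53 (SE 0.31) in WT. Spon2 fell by 3.58 (SE 0.73) in AdC3KO and 2.65 (SE 0.66) in WT, and Smoc1 by 2.04 (SE 0.19) in AdC3KO and 1.36 (SE 0.19) in WT. Of 13 proteoglycan and hyaluronan genes, 1 rose and 6 fell in AdC3KO, and 2 rose and 4 fell in WT, with the hyaluronidases apart: Hyal1 fell by 2.13 (SE 0.29) in AdC3KO and 2.12 (SE 0.30) in WT and Hyal2 rose by 0.47 (SE 0.15) and 0.50 (SE 0.15). The hyaluronan synthase Has3 fell by 2.43 (SE 0.40) in AdC3KO and 3.19 (SE 0.43) in WT, while Has1, under 1 CPM in each group, passed in WT alone. Of 8 further collagen genes tested, 2 rose and 3 fell in AdC3KO, and 3 rose and 3 fell in WT. Col7a1, the chain of anchoring fibrils, rose by 2.55 (SE 0.29) in AdC3KO and 2.23 (SE 0.29) in WT, and Col13a1 by 0.85 (SE 0.20) and 1.02 (SE 0.21). Col28a1 fell by 1.12 (SE 0.30) in AdC3KO and 1.004 (SE 0.30) in WT, and Col23a1 by 1.096 (SE 0.19) and 0.80 (SE 0.19).

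Markers of the other cells of the depot were counted in the same fit. Of 10 fibroblast markers, 1 rose and 1 fell with cold in AdC3KO, and 2 rose and 1 fell in WT. Their sum was 927 to 1404 CPM in AdC3KO at 4 °C, 1022 to 1412 CPM in WT at 4 °C, 824 to 1343 CPM in AdC3KO at 30 °C and 889 to 1225 CPM in WT at 30 °C, which overlap. Gsn alone, with group averages of 751 to 843 CPM, makes up most of this sum. Of 9 endothelial markers, 5 rose (Pecam1, Cdh5, Kdr, Cldn5 and Flt1) and 4 fell (Tek, Tie1, Emcn and Erg) in both genotypes. Their sum was 1519 to 1807 CPM in AdC3KO at 4 °C, 1401 to 1612 CPM in WT at 4 °C, 787 to 900.0 CPM in AdC3KO at 30 °C and 769 to 1030.3 CPM in WT at 30 °C, higher at 4 °C without overlap. This sum follows the 5 that rose, which have more counts. In WT at 4 °C they averaged 188 (Flt1) to 346 CPM (Kdr), and the 4 that fell 7.45 (Emcn) to 57.4 CPM (Tie1). Of 6 mural cell markers, 1 rose and 2 fell in AdC3KO, and 1 rose and 3 fell in WT, with sums of 502 to 598 CPM in AdC3KO, and 469.9 to 555 CPM for WT, at 4 °C, and 587 to 657 CPM in AdC3KO, and 594 to 672 CPM for WT, at 30 °C. Rgs5, with group averages of 389 to 441 CPM, makes up most of the mural sum. Of 8 macrophage markers, 3 rose in AdC3KO and 5 in WT and 0 fell, with sums of 211 to 375 CPM in AdC3KO, and 267 to 561 CPM for WT, at 4 °C, and 161 to 242 CPM in AdC3KO, and 162 to 197 CPM for WT, at 30 °C. Of 6 Schwann cell markers, 0 rose and 4 fell in AdC3KO and 0 rose and 5 fell in WT, with sums of 73.1 to 103 CPM in AdC3KO, and 68.2 to 96.1 CPM for WT, at 4 °C, and 94.3 to 128 CPM in AdC3KO, and 117 to 145 CPM for WT, at 30 °C. Red blood cell markers rose in 5 of 5 in AdC3KO and 4 of 5 in WT, with sums of 496 to 622 CPM in AdC3KO, and 326 to 599 CPM for WT, at 4 °C, and 245 to 385 CPM in AdC3KO, and 276 to 358 CPM for WT, at 30 °C. Only 1 of 6 mesothelial markers was tested, and it was not called. In none of these lists was a marker called between AdC3KO and WT. The part of these cells in the matrix results was not tested. A further fit left out the libraries that hold muscle transcripts, which leaves 1 AdC3KO library at 30 °C. There Adamts1, Adamts4, Adamts9, Thbs1, Col4a1, Col4a2, Eln, Lox, Col15a1 and Col5a3 were called in the same direction in both genotypes. The calls lost in AdC3KO were Postn (log2 fold change 0.57), Timp3 (0.92), Lum (−0.22), Sparc (0.35), Thbs2 (1.34) and Col6a3 (−0.29). In WT, Sparc (0.32), Lum (−0.46) and Loxl1 (−0.32) lost theirs.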

How the data were processed

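RNA from BAT was sequenced in 14 libraries. Per the series' design text, the authors trimmed reads with Trimmomatic, aligned them to GRCm38/mm10 with STAR and counted them per gene with HTSeq; no source used here gives versions or the strand setting. Counts are deposited raw, per Ensembl gene, with 5 summary lines that name no gene (no feature and ambiguous lines of 5.53% to 8.19% of a library each, and 3 at 0) left out. Whether libraries come from different animals is not stated, so the spread behind each p-value may be technical.

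From these counts, all libraries entered 1 fit of the 4 group means with edgeR 4.0.16 in R 4.3.3 (filterByExpr at a minimum count of 10, TMM scaling, quasi-likelihood F-test with robust spread, Benjamini-Hochberg over 15949 genes, threshold 0.05). CPM carries the TMM factors, which were 1.11 to 1.21 at 30 °C and 0.82 to 0.95 at 4 °C. The fit was tested on simulated data. Exon lengths and coordinates are from the GRCm38 annotation. Replicate pairs differed by more than sampling noise (chi-square per degree of freedom 16.9 to 83.5), so each library was counted once.

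The members, gene lists and chain ratios were chosen with earlier results of these data known. Values in every library are given for members changed at least 2-fold in a cold comparison and the most abundant member of each role; of other matrix classes, the 2 largest rises and 2 largest falls called in WT are named, except for genes not reported here. Alternatives were DESeq2 1.42.0, other scalings and filters, the compared groups alone, the replicate number as a block, and each library left out. Leaving out libraries with muscle or interferon transcripts, and total counts, were chosen after seeing the data. A sign is given as turned only where the value passed the test with TMM scaling, whether or not the turned value did.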

Additional observations from a re-analysis of the deposited data

Results flagged for a closer look

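In groups of 4 libraries, 1 library stood apart from the other 3 (gap over range above Dixon's critical value of 0.829) in 13 of 124 groups examined, where chance flags about 1 in 20. Among single members, Col3a1 was at 477.7 CPM in AdC3KO replicate 3 at 4 °C, against 365 CPM in the nearest library, and Col14a1 at 22.6 CPM in WT replicate 1 at 4 °C, against 8.96 CPM in the nearest. Type I took 6.42% of the collagen counts in AdC3KO replicate 3 at 4 °C, the library with 377 CPM of skeletal muscle transcripts, against 4.69% in the nearest. The ratio of Col1a1 to Col1a2 was 1.09 in AdC3KO replicate 1, against 1.26 in the nearest, and 1.47 in WT replicate 4, against 1.29 in the nearest, both at 4 °C.

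These last libraries also stood apart in markers of other cells. AdC3KO replicate 1 at 4 °C had a mural sum of 501.7 CPM, a macrophage sum of 374.7 CPM and a red blood cell sum of 496 CPM. WT replicate 4 at 4 °C had a mural sum of 469.9 CPM, a macrophage sum of 561 CPM and an interferon sum of 1141 CPM. WT replicate 2 at 4 °C had a skeletal muscle sum of 38.9 CPM. The part of these in the matrix values was not tested. Without AdC3KO replicate 1 and WT replicate 4 at 4 °C, the cold response of Timp1 in WT was 1.22 (edgeR, adjusted p = 0.0635) and that of Mmp19 was 0.49 (adjusted p = 0.00581) in AdC3KO and 0.36 (adjusted p = 0.0327) in WT.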

How the results depend on the processing

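Of the 24 members called with cold in AdC3KO, 17 were called in the same direction under every alternative, and of the 27 in WT, 20 were. The exceptions were Col18a1, Col6a3, Lum, Postn, Sparc, Thbs2 and Timp3 in AdC3KO, and Adamts5, Dcn, Loxl1, Lum, Sparc, Timp1 and Timp4 in WT. The same shares were not counted over all called genes, so they are not read as a trait of the members. No member was called between AdC3KO and WT, or for the difference in cold response, under any alternative run. Total counts without a scaling factor, an alternative chosen after seeing the data, called 16 members lower in AdC3KO in place of 8, since this scaling moves all genes down. The share of all genes called with total counts is not set beside this count, so it is not read as a trait of the members. Total counts also turned the sign of Sparc, to −0.0436 (adjusted p = 0.652) in AdC3KO and −0.0097 (adjusted p = 0.925) in WT, and of Dcn in WT, to −0.0083 (adjusted p = 0.953). Over all genes, upper-quartile scaling called 3737 higher and 6542 lower in AdC3KO, against 4937 and 5113 with TMM, and 3640 higher and 6415 lower in WT, against 4879 and 4908. Without the muscle libraries the smallest adjusted p the cold ratio tests could give was 0.1.

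The replicate numbers do not pair the libraries: of 19 same-numbered pairs, 1 deviated together with a correlation over 0.1, and the range was −0.34 to 0.30. With the number as a block, 17 members were higher and 8 lower in AdC3KO, and 19 higher and 8 lower in WT. The share of all genes called with the block is not set beside these counts. Dcn gained its call in AdC3KO (adjusted p = 0.0462) and Col18a1 in WT (0.0477), and Loxl1 lost its call in WT (0.0674). In the comparisons of AdC3KO with WT and in the difference of cold responses the block called 0 members.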
